A study of Mus musculus with 6 samples.

Results

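Primordial germ cells, the precursors of eggs and sperm, are set aside in the mouse from a small group of epiblast cells around the time of gastrulation. Bmp4 from the extra-embryonic ectoderm, relayed by Smad1 and Smad5 and joined by Wnt3, induces the transcription factors Prdm1 (also called Blimp1), Prdm14 and Tfap2c, which silence somatic genes and restore pluripotency and germ cell genes. Dppa3 (Stella) and the Ifitm (Fragilis) membrane proteins mark the nascent germ cells, while the RNA-binding proteins Nanos3 and Dnd1 and the receptor tyrosine kinase Kit keep them alive as they proliferate and migrate. In culture, epiblast-like cells (EpiLCs) are the stage from which germ cell-like cells can be induced with Bmp4.

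The levels of 10 such genes, Prdm1, Prdm14, Tfap2c, Dppa3, Nanos3, Dnd1, Kit, Ifitm1, Ifitm2 and Ifitm3, were examined among the 24288 gene symbols of the deposited expression table. They were chosen by name for their role in germ cell specification, and where a symbol had several entries the one with the most reads was taken. RNA sequencing compared day 2 EpiLCs of a wild-type line (WT, the CCE line, 3 libraries) with day 2 EpiLCs of a Smad2/3 double knockout (DKO, clone KT15.1F6, 3 libraries), to find the genes whose expression needs Smad2 and Smad3, which relay Nodal and activin signals to the genome. Both genotypes were of strain 129/Sv//Ev, were grown as embryonic stem cells with LIF and inhibitors of Mek and Gsk3, and were then kept for 48 h with 20 ng/ml activin A and 12 ng/ml Fgf2, so the WT cells were exposed to activin as well. The DKO line carries the Smad2tm1Rob null allele, and its Smad3 promoter and exon 1 were removed with a Cas9 nickase. The 3 libraries of a genotype came from independent differentiations of 1 line or clone, so differences between the lines that are unrelated to the knockout cannot be told apart from it. The labels name no added Bmp for either genotype.

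The libraries held 57644143 to 63046034 recovered reads each, over 1 entry per gene. Values are normalized reads, meaning reads over a gene body divided by the library's size factor, and they are not scaled for length. Smad3 fell from 839 ± 37.0 normalized reads (SD, n = 3) in WT to 23.6 ± 6.16 (SD, n = 3) in DKO. Smad2 read 4520 ± 86.3 in WT and 5062 ± 109 in DKO (SD, n = 3 each), so the read count over its gene body does not check the null allele.

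Of the 10 germ cell specification genes, 5 were called higher in DKO EpiLCs and none was called lower. These were Tfap2c, Prdm14, Dppa3, Kit and Ifitm1, which were 1.64 to 5.77 times as high in DKO as in WT. Prdm1, Nanos3, Dnd1, Ifitm2 and Ifitm3 were not called, and their log2 fold changes lay between -0.25 and 0.09. A gene was called when its limma adjusted p over 25361 tested entries lay under 0.05 and its fold change exceeded 1.5. At this rule 15.4% of the tested entries were called, as were 15.4% of 17038 genes with 1 entry each, 7.34% of genes being higher and 8.03% lower in DKO. WT and DKO values did not overlap for 7 of the 10 genes, against 59.0% of all genes tested. The median log2 fold change was 0.40 over the 10 genes and 0.00 over all genes tested.

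**Figure D1:**
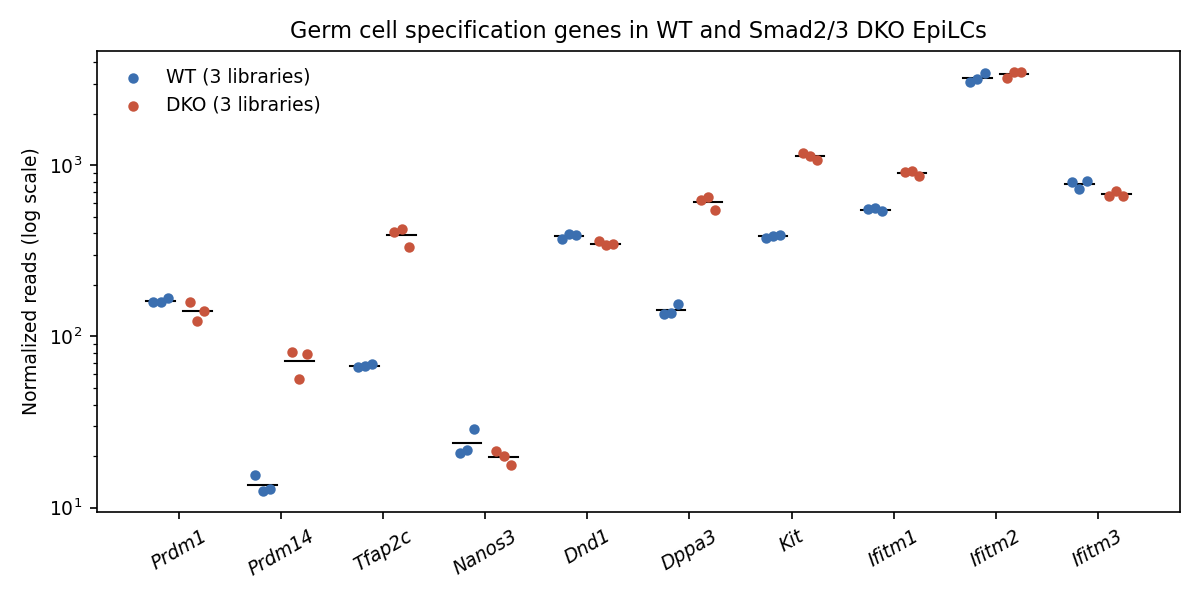
Normalized reads (log scale) of the 10 germ cell specification genes in each of the 3 WT and 3 DKO day 2 EpiLC libraries, with 1 point per library and a line at the group mean. The DKO points of Prdm14, Tfap2c, Dppa3, Kit and Ifitm1 sit above all WT points, while those of Prdm1, Nanos3 and Ifitm2 mingle with the WT points.

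Tfap2c, which encodes the transcription factor Ap2γ and lies on chromosome 2 (172549593 to 172558622, plus strand, mm10), had the greatest log2 fold change of the 10 genes. It read 66.6, 67.2 and 68.8 normalized reads in the 3 WT libraries and 411, 427 and 331 in the 3 DKO libraries. All DKO libraries were far above all WT libraries, which lay close to one another. The log2 fold change was 2.50 ± 0.10 (SE), with a limma adjusted p of 4.82e-18. The table also holds a shorter Tfap2c entry nested in this one, and the 1401 bases outside the shorter entry held 5.47 ± 1.04 normalized reads in WT and 23.9 ± 5.42 in DKO (SD, n = 3 each), a ratio of 4.37 that was not tested. These bases held only 8 to 11 reads per WT library.

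Prdm14, a zinc finger factor that supports pluripotency and germ cell fate (chromosome 1, 13113457 to 13127163, minus strand), was the scarcest of the genes in WT. It held 29, 22 and 24 reads in the WT libraries and 150, 108 and 153 in the DKO libraries. After scaling these were 15.6, 12.5 and 12.8 normalized reads in WT and 80.7, 56.7 and 79.3 in DKO. The groups did not overlap, and DKO replicate 2 was the lowest of its group. The log2 fold change was 2.31 ± 0.21 (SE), with a limma adjusted p of 1.83e-10.

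Prdm1, the zinc finger repressor of the somatic program (chromosome 10, 44438293 to 44458687, minus strand), did not share this pattern. It read 160, 158 and 168 normalized reads in WT and 159, 123 and 140 in DKO, so that DKO replicate 1 lay within the WT range. The log2 fold change was -0.21 ± 0.10 (SE), with a 95% interval from -0.42 to 0.00 and a limma adjusted p of 0.0886. Within a library the ratio of Prdm1 to Prdm14 was therefore 12.0 ± 1.54 in WT and 1.97 ± 0.201 in DKO (SD, n = 3 each). The ranges did not overlap, and the exact two-sided permutation p was 0.1, the smallest that 3 against 3 libraries allow. The ratio of Tfap2c to Prdm14 was 5.00 ± 0.631 in WT and 5.60 ± 1.73 in DKO (SD, n = 3 each; exact two-sided permutation p = 0.9). Its log2 difference of 0.13 turned to -0.11 without DKO replicate 2, so no direction is given for it.

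Dppa3, a maternal factor that protects DNA methylation in the zygote and is an early germ cell marker (chromosome 6, 122626410 to 122630272, plus strand), was also higher in DKO. It read 135, 137 and 155 normalized reads in WT and 631, 655 and 549 in DKO. Every DKO library was over 3 times the highest WT library. The log2 fold change was 2.09 ± 0.08 (SE), with a limma adjusted p of 9.47e-19. Of the 75-base windows of its transcript, 4.08% also occur in the pseudogene Dppa3-ps, so a small part of its reads cannot be placed with certainty.

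Kit, the receptor for stem cell factor on migrating germ cells (chromosome 5, 75574916 to 75656722, plus strand), read 378, 387 and 394 normalized reads in WT. In DKO it read 1173, 1142 and 1077. The groups were well apart, and the spread within each was under 5% of its mean. The log2 fold change was 1.55 ± 0.05 (SE), with a limma adjusted p of 4.59e-20. Its ligand Kitl (stem cell factor) rose as well, from 140 ± 5.78 to 213 ± 17.2 normalized reads (SD, n = 3 each; log2 fold change 0.60 ± 0.09, SE; limma adjusted p 3.93e-06). That fold change sat close to the threshold, and Kitl was not called without WT replicate 1 (0.57) or without DKO replicate 1 (0.54).

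The RNA-binding survival factors were not called. Nanos3, which represses translation of its target RNAs together with Pumilio proteins (chromosome 8, 84173733 to 84176552, minus strand), read 21.0, 21.6 and 28.8 normalized reads in WT and 21.5, 20.0 and 17.6 in DKO. The groups overlapped, and with 34 to 54 reads per library the 95% interval of its log2 fold change ran from -0.74 to 0.24, which does not exclude a fall past the 1.5-fold threshold. Dnd1, which binds RNA with Nanos proteins (chromosome 18, 36763673 to 36766198, minus strand), read 370, 396 and 394 normalized reads in WT and 360, 340 and 345 in DKO. All DKO libraries of Dnd1 lay below all WT libraries, but by little, with a log2 fold change of -0.15 ± 0.06 (SE) and a limma adjusted p of 0.0535. Of its bases, 138 overlap Wdr55 on the opposite strand, and whether strand was used in counting is not given in the sources used here.

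**Figure D2:**
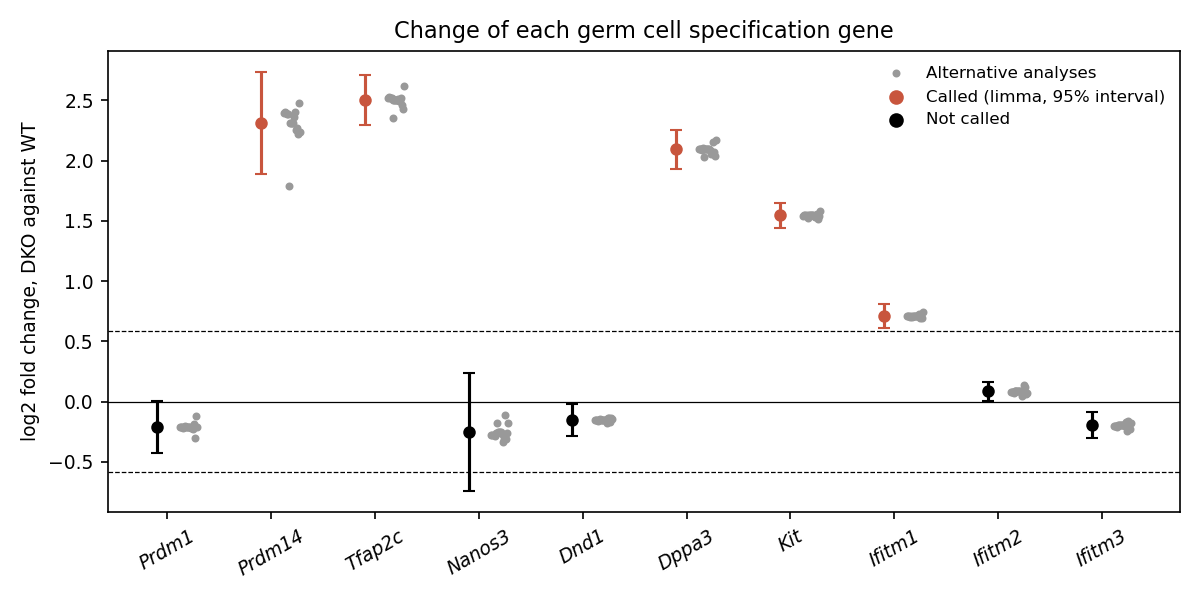
Log2 fold change of DKO against WT for the 10 genes (limma, with the 95% interval), beside the values from the alternative analyses as grey points. Dashed lines mark a fold change of 1.5, and the 5 called genes sit above the upper line while the others lie between the lines.

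The 3 Ifitm genes lie in 1 cluster on chromosome 7 and encode interferon-induced transmembrane proteins, known for blocking virus entry and, in the embryo, as surface markers of germ cell precursors. They are close copies. Their coding sequences were 81.4% (Ifitm1 and Ifitm2), 81.6% (Ifitm1 and Ifitm3) and 79.4% (Ifitm2 and Ifitm3) identical. The longest run of coding bases shared without a difference was 69 bases, between Ifitm2 and Ifitm3. The stretch below is shown because Ifitm1 and Ifitm3 share 64 bases without a difference in it. It is shorter than a read of 75 bases, as is the run shared by Ifitm2 and Ifitm3. It covers coding bases at chr7:140968351-140968414 (plus strand, Ifitm1), chr7:140955694-140955757 (minus strand, Ifitm2) and chr7:141010421-141010484 (minus strand, Ifitm3) of mm10. Capitals mark the 4 bases at which Ifitm2 differs from the other two.
Ifitm1: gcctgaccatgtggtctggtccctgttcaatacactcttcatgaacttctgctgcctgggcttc
Ifitm2: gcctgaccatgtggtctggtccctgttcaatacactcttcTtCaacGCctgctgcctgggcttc
Ifitm3: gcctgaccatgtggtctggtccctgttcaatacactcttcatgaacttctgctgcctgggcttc
A window of 75 bases, the length of 1 read, was unique for nearly all positions of Ifitm1 and Ifitm3, with 0.743% and 0.662% of windows also found in the predicted gene Gm7676. For Ifitm2, 42.0% of windows (244 of 581) were also found in other genes, among them Gm45717, which overlaps it on the same strand by 1101 bases. Windows in the overlap with Gm45717 lie at the same place in the genome and were not counted apart from the others. The count of Ifitm2 is therefore uncertain, by an amount that was not measured.

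Only Ifitm1 of the 3 was called (140967221 to 140969825, plus strand). It read 554, 560 and 539 normalized reads in WT and 918, 926 and 868 in DKO. The groups were well apart, with a log2 fold change of 0.71 ± 0.05 (SE) and a limma adjusted p of 7.73e-13. Against the stricter null of a 1.5-fold change its adjusted p was 0.103 (limma). Ifitm3 (141009586 to 141010770, minus strand) read 803, 723 and 811 in WT and 662, 713 and 666 in DKO. All DKO libraries of Ifitm3 were below all WT libraries, but its change of -0.19 ± 0.05 on the log2 scale (SE; adjusted p 0.00286, limma) was under the fold threshold.

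Ifitm2 (140954837 to 140955987, minus strand) read 3060, 3179 and 3451 normalized reads in WT and 3251, 3527 and 3502 in DKO. The groups overlapped, and the log2 fold change was 0.09 ± 0.04 (SE; limma adjusted p 0.0556). Ratios between the 3 genes within a library did not overlap between the genotypes when taken to Ifitm3. The ratio of Ifitm1 to Ifitm3 was 0.710 ± 0.0574 in WT and 1.33 ± 0.0488 in DKO (SD, n = 3 each; exact two-sided permutation p = 0.1, the smallest possible). Ifitm1 made up 12.6%, 12.6% and 11.2% of the summed normalized reads of the 3 genes in WT and 19.0%, 17.9% and 17.2% in DKO. The ratio of Ifitm2 to Ifitm3 was 4.16 ± 0.307 in WT and 5.04 ± 0.192 in DKO (SD, n = 3 each; exact two-sided permutation p = 0.1). This ratio and the shares rest on the count of Ifitm2, which is uncertain as said above. Ifitm2 made up 67.3% to 71.9% of the summed reads in the libraries.

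The other Ifitm genes were scarce. Ifitm5, which lies beside Ifitm2, read 39.8 ± 6.68 normalized reads in WT and 38.3 ± 4.44 in DKO (SD, n = 3 each). Ifitm6, beyond Ifitm3, had 0 or 1 read in every library, at or under the floor of 3 reads, so no fold is given. Ifitm10 was called (log2 fold change 1.25 ± 0.53, SE; limma adjusted p 0.0499), from 3.43 ± 3.61 to 7.53 ± 2.40 normalized reads (SD, n = 3 each). Its groups overlapped, and it was not called without WT replicate 1 (log2 fold change 0.65), WT replicate 2 (1.20), DKO replicate 2 (1.08) or DKO replicate 3 (1.16).

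**Figure D3:**
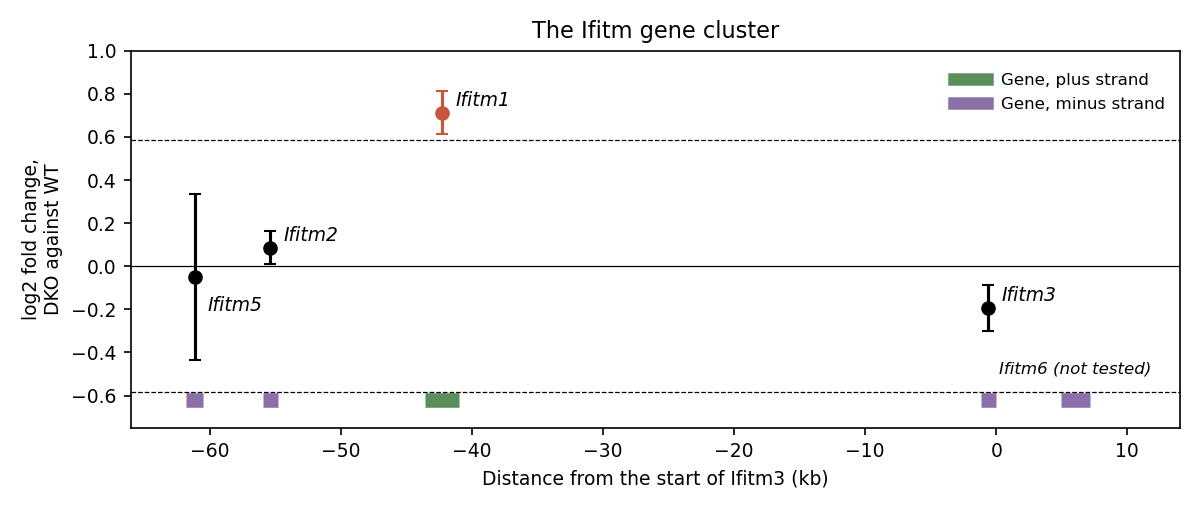
Log2 fold change of DKO against WT (limma, 95% interval) for the Ifitm genes of the chromosome 7 cluster, plotted at their distance in kb from the start of Ifitm3, with gene bodies as bars coloured by strand. Ifitm1 lies above the dashed 1.5-fold line at 0.71, between Ifitm2 at 0.09 and Ifitm3 at -0.19.

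Windows of 250 bases before a RefSeq start (GRCm38.p6, the mm10 assembly) were at hand for 6 of the 10 genes, namely Ifitm1, Ifitm2, Ifitm3, Kit, Nanos3 and Prdm1. The RefSeq start is not always that of the counted entry. The Ifitm1 window lies within the counted entry and runs 36 bases past the start of the shorter one, before which the counted entry held 3, 0 and 0 reads in WT and 2, 2 and 3 in DKO. The windows of Ifitm2, Ifitm3 and Kit run 26, 26 and 71 bases into their entries. The sequences are therefore printed only up to the first annotated start in the window, those of Ifitm1 and Kit because these genes were called, and those of Ifitm2 and Ifitm3 as neighbours of Ifitm1 that were not. They cover chr7:140967826-140968039 (plus strand, Ifitm1), chr7:140955988-140956211 (minus strand, Ifitm2), chr7:141010771-141010994 (minus strand, Ifitm3) and chr5:75574737-75574915 (plus strand, Kit). Capitals mark motif matches.
Ifitm1: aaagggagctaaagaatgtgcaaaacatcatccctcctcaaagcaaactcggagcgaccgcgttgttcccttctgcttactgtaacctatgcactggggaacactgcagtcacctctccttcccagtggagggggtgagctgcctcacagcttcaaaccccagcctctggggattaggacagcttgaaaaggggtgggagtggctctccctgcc
Ifitm2: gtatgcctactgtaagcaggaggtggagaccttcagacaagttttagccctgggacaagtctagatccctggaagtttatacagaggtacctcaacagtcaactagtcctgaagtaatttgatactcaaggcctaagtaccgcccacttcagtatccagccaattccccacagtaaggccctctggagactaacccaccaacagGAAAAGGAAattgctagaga
Ifitm3: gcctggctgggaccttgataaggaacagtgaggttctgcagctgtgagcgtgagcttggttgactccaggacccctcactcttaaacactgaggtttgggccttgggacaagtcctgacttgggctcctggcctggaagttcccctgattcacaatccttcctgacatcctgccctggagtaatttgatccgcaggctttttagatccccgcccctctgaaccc
Kit: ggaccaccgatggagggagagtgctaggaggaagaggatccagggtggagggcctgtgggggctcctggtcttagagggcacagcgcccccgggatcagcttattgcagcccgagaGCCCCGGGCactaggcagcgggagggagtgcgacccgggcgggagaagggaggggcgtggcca
A search of the whole windows on both strands covered GGCGCC and GTCTAGAC (Smad-type motifs), GCCNNNGGC (an Ap2-type motif) and GAAANNGAA (an interferon response type motif). They were present in 9.59%, 0.167%, 13.7% and 7.13% of 32851 promoter windows of the same length. Ifitm2 held GAAAAGGAA at 20 to 12 bases before the start of its counted entry, and Kit held GCCCCGGGC at 63 to 55 bases before it. Nanos3 held GCCTAGGGC at 221 to 213 bases before the start of its entry. No window had a second match, so no matches overlapped, and a match is a description of the letters and not a bound site.

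Levels of different genes were compared per kb of gene body. In WT the order of the mean levels, in normalized reads per kb, was Ifitm2 (2806), Ifitm3 (657), Ifitm1 (212), Dnd1 (153), Dppa3 (36.9), Nanos3 (8.44), Prdm1 (7.94), Tfap2c (7.48), Kit (4.72) and Prdm14 (0.99). The range of Nanos3 overlapped those of Prdm1 and Tfap2c, and the other neighbours did not overlap. In DKO Tfap2c (43.2 normalized reads per kb) and Kit (13.8) stood above Nanos3 (6.99) and Prdm1 (6.89), and Dppa3 (158) reached Dnd1 (138), with ranges that met. Prdm14 had the lowest mean in DKO at 5.27 normalized reads per kb of gene body.

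The order differed in part per kb of exon. In WT Kit, whose gene body is by far the longest, then ranked above Prdm1, Nanos3 and Tfap2c at 73.7 normalized reads per kb of exon. The counts are taken here to include introns, so intron reads can raise a value per kb of exon. Kit, with 81.8 kb of gene body and 5.24 kb of exon, is the most open to this, by an amount that was not measured. In DKO Dppa3 (734 normalized reads per kb of exon) was well above Dnd1 (240). Ifitm1 (1025) and Ifitm3 (1004) had overlapping ranges in DKO per kb of exon, as had Prdm1 (34.9) and Prdm14 (28.2), and Prdm14 and Nanos3 (27.0).

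The genes that act with these 10 were taken from lists of pathway members. For the counts of called genes below, the share over 17038 genes tested was 15.4%, with 7.34% higher and 8.03% lower in DKO. On the Bmp and Wnt signal list all 15 genes were tested, 3 were higher and 2 lower in DKO, and the median log2 fold change was -0.02. The 3 higher genes were the Bmp targets Id1, Id2 and Id3, inhibitors of helix-loop-helix factors. Id1 rose from 48.5 ± 3.36 to 4494 ± 283 normalized reads, Id3 from 122 ± 9.36 to 2638 ± 151 and Id2 from 411 ± 37.9 to 2102 ± 80.4 (SD, n = 3 each). Their limma adjusted p was 6.83e-24 or lower. Of the ligands, Bmp4 was at 113 ± 8.93 normalized reads in WT and fell to 65.9 ± 4.58 in DKO (SD, n = 3 each; limma adjusted p 9.82e-06). Wnt3a read 7.42 ± 3.28 normalized reads in WT and 2.64 ± 0.565 in DKO (limma adjusted p 0.0366), and it was not called without WT replicate 3 (log2 fold change -0.85), DKO replicate 2 (-1.05) or DKO replicate 3 (-1.15). None of the receptors or Smad genes on the list was called. Acvr1 (log2 fold change -0.49), Bmpr2 (-0.40) and Smad1 (-0.28) were still lower in every DKO library than in any WT library. Their limma adjusted p was 5.37e-06 or lower. Bmpr1a (0.08), Smad5 (0.13) and Smad4 (0.14) were higher without overlap, with limma adjusted p of 0.00829 or lower. Wnt3 was not called either, but all its DKO libraries lay below all WT libraries (-0.41, limma adjusted p 0.00177).

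Of the 11 partners of the germ cell factors, which include the Prdm14 cofactor Cbfa2t2, the Prdm1 partner Prmt5 and the Pumilio genes, only Kitl was called, and the median log2 fold change was 0.10. None of the 7 genes known to restrain germ cell genes, such as Otx2, Max and Dnmt1, was called, and their log2 fold changes lay between -0.14 and 0.23. Otx2 (0.23), Max (0.11) and Mga (0.04) were still higher in every DKO library than in any WT library. Pcgf6 (-0.12) and E2f6 (-0.14) were lower without overlap. Among all genes tested, 59.0% did not overlap. The somatic mesoderm genes that Prdm1 is known to silence in germ cell precursors split, with 2 higher and 2 lower of 6 tested. Fgf8, a growth factor of the primitive streak, fell from 146 ± 11.0 to 4.40 ± 2.38 normalized reads, and T (Brachyury) fell from 45.8 ± 1.91 to 15.4 ± 4.89 (SD, n = 3 each). Evx1 rose from 5.09 ± 0.462 to 23.6 ± 5.83 and Hoxb1 from 18.2 ± 1.07 to 29.9 ± 3.48 normalized reads (SD, n = 3 each). These 4 genes had limma adjusted p of 0.0119 or lower. Mesp1 and Cdx1 had too few reads to be tested.

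Surface markers used to sort germ cells also split, with 2 higher and 1 lower of 6 tested, against 15.4% of all genes called. Alpl (log2 fold change 0.17), Fut4 (-0.43) and Epcam (0.03) were not called. Itgb3 (integrin beta 3) rose from 47.0 ± 12.3 to 166 ± 10.8 normalized reads, and Pecam1 rose from 963 ± 31.3 to 2301 ± 165 (SD, n = 3 each), both with limma adjusted p of 4.19e-11 or lower. Cxcr4, the chemokine receptor of migrating germ cells, fell from 19.3 ± 1.98 to 9.25 ± 5.15 (SD, n = 3 each; limma adjusted p 0.007), and was not called without DKO replicate 1 (log2 fold change -0.66). Of 7 genes of later germ cells, Tdrd9, a helicase of the piRNA pathway, and Dazl, a translation factor, were higher, with log2 fold changes of 0.98 ± 0.12 and 0.74 ± 0.04 (SE) and limma adjusted p of 1.54e-07 or lower. The median log2 fold change of these 7 genes was 0.46. Of the paralogs, 8 of 11 were tested and 3 were higher, namely Tfap2a (1.77 ± 0.20), the Kit-related receptor Pdgfra (1.16 ± 0.15) and Nanos1 (0.66 ± 0.12; log2 fold change and SE), with limma adjusted p of 2.01e-05 or lower. Nanos1 was not called without WT replicate 1 (0.57). Nanos2, the paralog of male germ cells, had 0 or 1 read in every library.

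**Figure D4:**
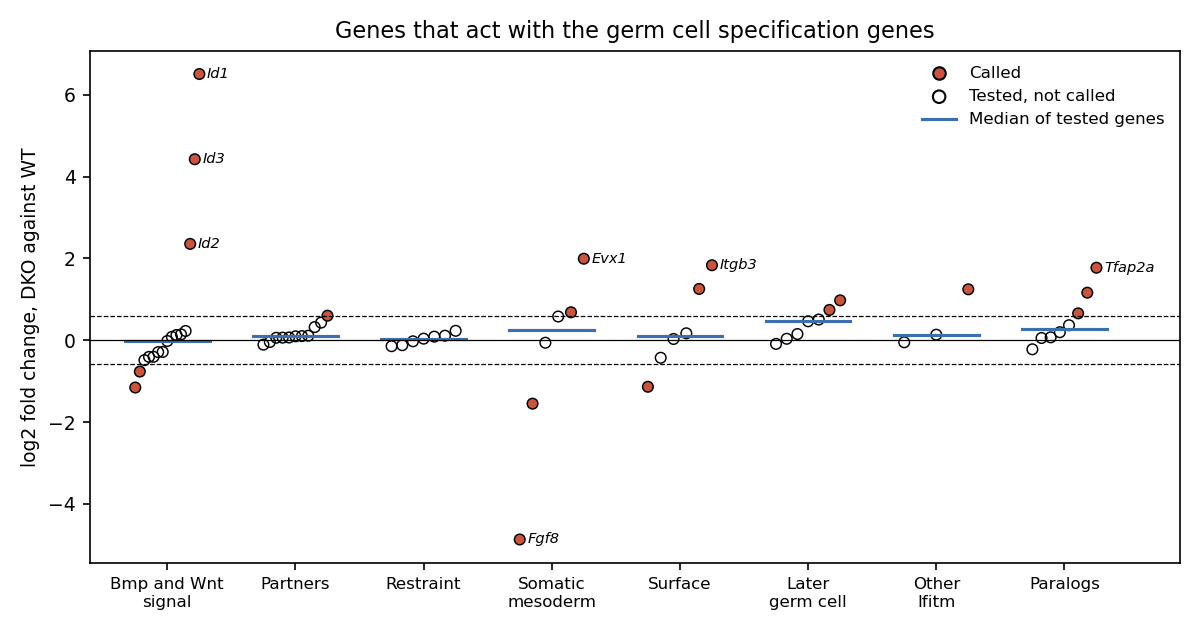
Log2 fold change of DKO against WT for each tested gene of the 8 pathway lists, with called genes filled, a bar at each list's median and dashed lines at a fold change of 1.5. The 3 Id genes stand above the other members of the signal list, Fgf8 lies lowest at -4.87, and all genes of the restraint list lie between the dashed lines.

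Several of the 10 genes are not specific to germ cells, so markers of other cells were measured beside them. Dppa3, Prdm14, Tfap2c and Kit are also expressed in naive embryonic stem cells or in the early embryo. Over all genes tested, 7.34% were called higher in DKO and 8.03% lower. Of the naive markers 7 of 8 were called higher, with a summed level of 3598 to 3796 normalized reads in WT and 6410 to 6524 in DKO. Among them were Nr5a2 (log2 fold change 2.14), Tbx3 (1.78), Klf2 (1.11), Klf5 (0.89) and Tfcp2l1 (0.79). Tfap2c is also a gene of the trophoblast. Of the trophoblast markers 7 of 7 tested were called higher, with summed levels of 394 to 433 normalized reads in WT and 886 to 1000 in DKO. Among them were Gata3 (4.82), Gata2 (3.28), Hand1 (1.69), Ascl2 (1.59) and Cdx2 (1.50, log2 fold changes), while Elf5 had 0 reads in 2 libraries of each genotype and at most 6 in any. Eomes gave most of the WT sum, with mean levels of 305 normalized reads in WT and 469 in DKO. Gata3 (3.25 normalized reads), Hand1 (4.32) and Gata2 (5.09) were scarce in WT. Plac1 was not called without WT replicate 3 (0.85) or DKO replicate 2 (0.85), and Eomes without WT replicate 1 (0.57) or DKO replicate 2 (0.58, log2 fold changes). The part of these cells or states in the results was not tested, and in bulk RNA fewer cells of a type and less RNA per cell cannot be told apart.

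Epiblast markers were abundant in both genotypes. The 6 epiblast markers summed to 105673 to 109456 normalized reads in WT and 102346 to 103766 in DKO. Most of this sum came from Dnmt3b, with means of 70390 in WT and 65421 in DKO, and from Pou5f1 (21846 and 20761). The sum therefore says little of the other markers. Of these, Fgf5 (log2 fold change -2.02) and Pou3f1 (-0.62) fell, Sox2 rose (1.47) and Otx2 (0.23) was not called. Markers of extra-embryonic endoderm summed to 140 to 176 normalized reads in WT and 231 to 319 in DKO, with 2 of 6 tested called, Gata6 (1.18) and Cubn (0.92, log2 fold changes), and Ttr at or under the floor. The study's methods describe culture without feeder cells. Fibroblast markers summed to 296 to 331 and 214 to 250 normalized reads, with Col1a2 lower in DKO (log2 fold change -1.07) and Postn at or under the floor. The part of these cells in the results was not tested.

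**Figure D5:**
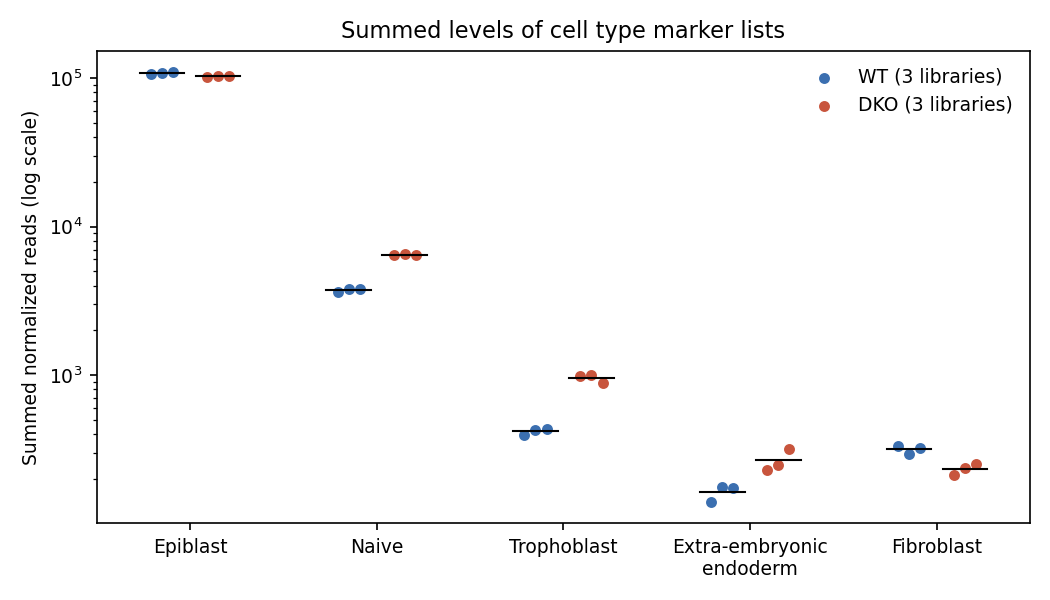
Summed normalized reads (log scale) of 5 marker lists in each of the 3 WT and 3 DKO libraries, with 1 point per library and a line at the group mean. The naive and trophoblast sums are higher in every DKO library than in any WT library. The epiblast sum, mostly Dnmt3b and Pou5f1, exceeds the others in both genotypes.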

How the data were processed

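Total RNA of WT and DKO day 2 EpiLCs (3 libraries each) was depleted of ribosomal RNA and sequenced as strand-specific paired-end libraries over 75 cycles. Ribosomal reads were filtered by the authors with bowtie2 before alignment to mm10 with STAR, PCR duplicates were dropped, and reads were counted over gene bodies, taken here to include introns (versions are not given in the sources used here). The deposited signal is these counts divided by a size factor per library (1.76 to 1.93), with no scaling for length. Dividing by the value of 1 read gave whole numbers (within 0.1) for all values. The authors' comparison table (fold changes and p-values) was not used. Rows without a symbol (138 of 33812, 0.517% of reads) were left out.

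Differences were tested with limma 3.58.1 (in R 4.3.3), with a variance trend, on log2 of the value plus a pseudocount of 1, over 25361 entries that passed filterByExpr on the recovered reads, so fold changes of scarce genes are understated. A call needed a Benjamini-Hochberg adjusted p under 0.05 and a fold change over 1.5. edgeR (4.0.16) and DESeq2 (1.42.0) on the recovered reads were alternatives. Ratios within libraries were tested by exact permutation. Deviations of same-numbered libraries did not correlate (0.01, -0.03 and 0.04 over 11930 genes), so the main fit did not pair them. Whether same-numbered differentiations were run side by side is not given in the sources used here. Errors cover counting and the spread between differentiations only.

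The 10 genes, the lists and the tests were chosen with earlier results of these data known. The text names the 10 genes, Smad2, Smad3, up to 5 called members of each list with the greatest change, and list members at the floor of 3 reads. Members that lost a call when 1 library was left out, restraint and partner genes given as examples, Ifitm5, Elf5, Mesp1, Cdx1, Cbfa2t2 and the genes sharing sequence with a member were named in addition, after their values were seen. So were the receptor and Smad genes of the signal list, Wnt3, Alpl, Fut4, Epcam, Dnmt3b and Pou5f1. Transcripts came from GENCODE and promoters from RefSeq, both on GRCm38.p6.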

Additional observations from a re-analysis of the deposited data

How the results depend on the processing

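The 5 calls among the 10 genes held in all alternatives that could test the gene, with 1 exception: against a null of a 1.5-fold change, Ifitm1 (log2 fold change 0.71) had an adjusted p of 0.103. Over the alternatives the log2 fold change ranged from 1.79 to 2.48 for Prdm14, 2.36 to 2.62 for Tfap2c, 2.03 to 2.17 for Dppa3, 1.52 to 1.58 for Kit and 0.69 to 0.74 for Ifitm1. With no fold-change threshold Ifitm3 (-0.19) and Smad2 (0.16) passed. The 3904 called entries became 1923 when entries averaging under 100 normalized reads were left out, where Prdm14 and Nanos3 were not tested, 13977 with no fold-change threshold and 1735 against a 1.5-fold null. The 19 called members of the pathway lists became 8, 49 and 12 under these settings. Leaving out 1 library gave 3775 to 3852 entries and 16 to 19 list members. The log2 difference in the ratio of Tfap2c to Prdm14 ranged from -0.11 to 0.31 when 1 library was left out and was negative only without DKO replicate 2. The cause was not tested. A fit with the replicate number as a replicate block called 3913 entries and the same 5 of 10 genes in number, and changed no call among the 10 genes. limma-voom, an alternative added after the data were seen, called 3991 entries. Depth limits Nanos3 and Prdm14 most, with 22 to 54 reads per WT library.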
